A study of Drosophila melanogaster with 2 samples.

Results

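The intergenic Giant-GFP peaks near genes are the peaks of the authors' pooled list whose summit lay more than 500 bp and at most 10000 bp from the nearest protein-coding transcription start site (TSS) and inside no annotated gene. There were 215 of them among the 1825 pooled peaks on the main chromosome arms (11.8%, 95% Wilson interval 10.4% to 13.3%), and they are called intergenic near-gene peaks here. The other pooled peaks were 631 inside genes at the same distances, 776 within 500 bp of a TSS and 203 more than 10000 bp from any. The peaks came from chromatin immunoprecipitation with an anti-GFP antibody, followed by sequencing (ChIP-seq), in 1 group of 2 biological replicates. The embryos were whole Drosophila melanogaster embryos aged 0 to 18 h, from a transgenic strain that expressed an eGFP fusion of Giant, encoded by gt. A collection this wide mixes every embryonic cell type and many stages, so a peak shows that a site was recovered somewhere in the embryo and not in which cells. The series has no second group, so no test between conditions could be made, and differences between classes of peaks are given with their intervals and were not tested. The strength of a peak is the signal value of the authors' peak caller, on a scale not given in the sources used here. Read depth is unknown too, because the peak lists carry no counts of reads.

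Giant is a basic leucine zipper (bZIP) protein and one of the gap factors, which divide the early Drosophila embryo along its head-to-tail axis. It acts mainly as a repressor and is known for setting borders of pair-rule stripes and of other gap domains. Many enhancers that read gap factors lie in intergenic DNA some distance from the promoter that they control, upstream or downstream of the gene. Intergenic peaks near genes are therefore the class in which such enhancers would be sought, although a nearest gene is a label of position and not a measured target. Factors of the bZIP family bind as dimers to short palindromes, and TTACGTAA is the palindromic Giant site used here, with at most 1 mismatch allowed on either strand. An unrelated set of 4 7-mers was also sought on both strands. They are ACAGTGG and, from the same core, CACAGTG, then CAGTGTA and last CACTGAG. All share the letters CAGTG or its reverse complement CACTG, can overlap one another, and had come from an earlier scan of the same pooled peaks.

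The bases within 100 bp of 8 summits are printed to show what these peaks hold. All are from the plus strand of Release 6 (dm6), and all 8 peaks were called in both replicates. The first 4 are the strong peaks nearest to tara (chr3R:16222408-16222608), CG31668 (chr2L:2202323-2202523), slp2 (chr2L:3832403-3832603) and CG7560 (chr3L:11416880-11417080), each with at least 1 of the 7-mers. Capitals in them mark every CAGTG or CACTG.
tara: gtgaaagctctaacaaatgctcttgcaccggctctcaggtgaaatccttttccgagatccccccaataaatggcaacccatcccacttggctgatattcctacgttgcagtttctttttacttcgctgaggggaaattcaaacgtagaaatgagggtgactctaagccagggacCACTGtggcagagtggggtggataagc
CG31668: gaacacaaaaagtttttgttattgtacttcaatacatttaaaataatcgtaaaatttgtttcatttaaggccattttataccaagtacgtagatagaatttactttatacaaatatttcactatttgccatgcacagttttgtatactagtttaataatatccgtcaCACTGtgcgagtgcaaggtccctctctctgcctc
slp2: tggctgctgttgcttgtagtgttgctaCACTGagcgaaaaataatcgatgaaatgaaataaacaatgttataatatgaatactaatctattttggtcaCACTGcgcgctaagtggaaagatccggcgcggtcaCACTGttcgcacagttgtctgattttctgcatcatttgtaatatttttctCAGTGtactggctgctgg
CG7560: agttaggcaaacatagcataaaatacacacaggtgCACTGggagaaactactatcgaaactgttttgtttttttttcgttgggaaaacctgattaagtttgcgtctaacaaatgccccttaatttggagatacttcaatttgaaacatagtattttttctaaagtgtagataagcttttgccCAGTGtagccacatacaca
Equally strong peaks had no CAGTG in the window. Those nearest to eEF1gamma (chr3R:29214359-29214559) and sp3 (chr3R:21520265-21520465) are shown in lower case throughout.
eEF1gamma: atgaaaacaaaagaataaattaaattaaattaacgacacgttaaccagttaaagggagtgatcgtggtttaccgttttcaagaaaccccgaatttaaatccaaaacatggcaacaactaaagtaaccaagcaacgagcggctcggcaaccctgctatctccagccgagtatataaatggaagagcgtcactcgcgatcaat
sp3: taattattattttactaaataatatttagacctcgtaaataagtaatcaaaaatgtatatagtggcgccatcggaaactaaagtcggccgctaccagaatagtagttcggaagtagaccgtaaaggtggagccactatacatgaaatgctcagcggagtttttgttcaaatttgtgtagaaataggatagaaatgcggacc
The peaks nearest to l(3)neo38 (chr3R:11780251-11780451) and Doc2 (chr3L:9025820-9026020) each hold a Giant site with 1 mismatch, which the capitals mark.
l(3)neo38: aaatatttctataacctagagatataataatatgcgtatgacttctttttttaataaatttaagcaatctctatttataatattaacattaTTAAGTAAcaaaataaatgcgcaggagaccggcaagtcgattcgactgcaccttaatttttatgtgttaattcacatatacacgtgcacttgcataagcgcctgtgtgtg
Doc2: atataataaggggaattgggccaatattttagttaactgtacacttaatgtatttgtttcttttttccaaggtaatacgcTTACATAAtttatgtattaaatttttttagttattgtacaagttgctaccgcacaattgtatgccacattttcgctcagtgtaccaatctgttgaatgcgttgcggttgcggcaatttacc
The slp2 window holds 4 copies of the core, centred 71 bp before the summit, at the summit itself, and 35 bp and 85 bp after it. The single copies at tara and CG31668 stood 76 bp and 69 bp after the summit, so the core was often beside the summit and not under it. The Giant sites at l(3)neo38 and Doc2 stood 5 bp and 16 bp before their summits. The Doc2 window also holds the 7-mer CAGTGTA, left in lower case, with its core 58 bp after the summit.

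The strongest intergenic near-gene peak lay 3143 bp upstream of tara (FBgn0040071), a trithorax-group gene, in the 20400-bp gap between the divergent genes mtSSB and tara. It had a pooled signal of 500.2 and ranked 27 of all main-arm pooled peaks, with signals of 271.1 in replicate 1 (rank 18) and 240.5 in replicate 2 (rank 45). The next lay between COX7AL2, a cytochrome c oxidase gene, and CG31668 (FBgn0051668), 3743 bp downstream of the CG31668 start, with a pooled signal of 439.6 and replicate signals of 195.9 and 244.1. Psc (FBgn0005624), which encodes a RING-finger subunit of Polycomb repressive complex 1, had intergenic peaks on both sides. The upstream one (2R, 12985131 to 12985321) lay 4212 bp from the Psc start, in the gap beside CG33798. Its pooled signal was 392.2, with 157.7 in replicate 1 and 227.8 in replicate 2. The gap between Psc and CG13321 held a pair, both nearer to the CG13321 start. The stronger had a pooled signal of 331.6 and replicate signals of 120.3 and 206.6. The weaker, at CG13321 too, had 156.4, with 56.1 in replicate 1 and 110.5 in replicate 2, and was called in both replicates. Apart from this last one, both replicates ranked each of these peaks among their 116 strongest regions.

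The peaks at eEF1gamma, CycB, sp3 and RasGAP1 were between those beside Psc in strength. eEF1gamma (FBgn0029176), a subunit of the translation elongation factor 1 complex, had a peak 5713 bp upstream, in the gap beside Cyt-c1L. Its pooled signal was 385.3, and its replicate signals were 191.9 and 183.0. CycB (FBgn0000405), the mitotic cyclin B, had one in the 1340-bp gap that separates it from the convergent gene blw, which encodes the ATP synthase alpha subunit. Its pooled signal was 379.2, and its replicate signals were 163.8 and 210.5. The peak nearest to sp3, in the gap beside the homeobox gene C15, reached 375.5, and RasGAP1, a Ras GTPase-activating protein gene beside CG10809, had one of 335.9 that lay 668 bp upstream. Among regulators of transcription, slp2, a forkhead pair-rule gene, had a peak of 250.2 in the gap between slp1 and slp2, 4337 bp upstream. The forkhead factor of the insulin pathway, foxo, had one of 249.4, 3382 bp upstream in the gap beside CG9922, and chinmo, a BTB zinc-finger gene, one of 181.9, 7781 bp upstream in the gap beside RFeSP. A further 8 of the 20 strongest members called in both replicates were nearest to CG43131 beside RabGGTa (285.2), CG7560 (243.7), CG4702 beside dpr17, an immunoglobulin-superfamily gene (231.2), CG10479 beside PVRAP (230.8), CG42807 (217.3), CG43401 beside CG43402 (201.7), CG43245 beside NijA (189.1) and DNAlig3, a DNA ligase gene (181.1). The DNAlig3 peak lay in the 437-bp gap between the convergent genes Sol1 and Cyp9f2, and DNAlig3 was its nearest gene by TSS only. The peak at hll, 290.4, lay beside NimC3, a gene of the Nimrod phagocytosis family. The 20 strongest members called in both replicates were the 20 strongest of all 215, with pooled signals of 181.1 to 500.2. Of these 20, 14 were upstream of the nearest TSS, beside 64.9% of all sequence that meets the position rule. For 9 of the 20 the nearest gene was known only by a CG number, as were 2904 of the 6517 genes with any such sequence. Both counts are thus near their base shares.

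The replicates were compared through each replicate's short thresholded list, in which a member counts as called when it overlaps a peak by at least 1 bp. Of the 215 members, 77 (35.8%, 29.7% to 42.4%) were called in both replicates, 36 in replicate 1 only, 31 in replicate 2 only and 71 (33.0%) in neither. Among all main-arm pooled peaks the share called in both was 41.2%, just inside the upper bound of the members' interval. The pooled list was built from the same 2 libraries, so a call in a replicate is not independent of membership in the list. Members called in both replicates had a median pooled signal of 149.8, those called in replicate 1 only 80.2, in replicate 2 only 82.6 and in neither 69.0. The highest signals were 500.2 in both, 162.9 in replicate 1 only (a CG7560 peak), 119.1 in replicate 2 only and 100.5 in neither, so the groups overlapped. The strongest member called in neither lay 5465 bp upstream of CG2772, with a pooled signal of 100.5, 39.9 in replicate 1 (rank 1031) and 61.3 in replicate 2 (rank 778). The next 4 of that kind were nearest to CG12540 at 97.0, Ca-alpha1T, a T-type calcium channel gene, at 96.2, CG12496 at 92.6 and CG3092 at 89.0.

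Members below a replicate's threshold were still present in its long ranked list. In replicate 1, 212 of the 215 members (98.6%) overlapped a ranked region, and in replicate 2 all 215 did. These lists are long, with 104826 and 127147 regions, and 43.3% and 53.7% of all 356-bp tiles of the same kind of intergenic sequence also overlapped one. Position in the list separated the members more than presence did. Their median rank was 1079.5 in replicate 1 and 1042 in replicate 2, within the first 1.03% and 0.82% of each list. Their median signal was 38.9 in replicate 1 and 52.9 in replicate 2, against 10.9 and 13.5 for all ranked regions of these replicates. The pooled list was thresholded on the same 2 libraries, and each member took its strongest overlapping region. High ranks and signals are therefore not independent of membership in the list. Across the 212 members with a region in both lists, the replicates' signals had a Spearman correlation of 0.539, and across the 77 called in both it was 0.545. The points share the 2 libraries, and some share a region, so these are descriptions across regions and not tests. The peak beside Gr89a, a gustatory receptor gene, shows the scatter, with 52.2 in replicate 1 (rank 639) and 21.0 in replicate 2 (rank 26418).

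**Figure D1:**
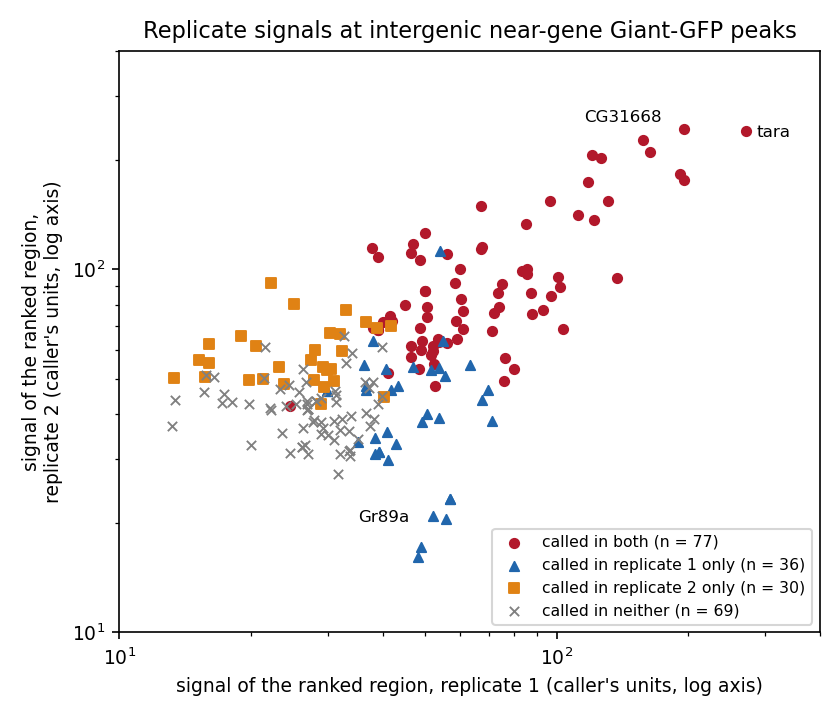
Signal of each intergenic near-gene peak in replicate 1 (x axis) and replicate 2 (y axis), in the caller's units on log axes, for the 212 members with a ranked region in both replicates; each point is 1 member, coloured by the thresholded lists that hold it. The 77 members called in both replicates spread to the upper right, up to tara at 271.1 and 240.5, and most of the other members lie below or to the left of them.

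In strength the intergenic near-gene peaks were close to the peaks inside genes at the same distances. The members' median pooled signal was 87.3 (lower and upper quartiles 69.1 and 124.9, range 2.11 to 500.2), against 88.2 for in-gene peaks, 106.3 for peaks within 500 bp of a TSS and 82.4 for peaks beyond 10000 bp. The quartile ranges of all 4 classes overlapped. The strongest member was below the strongest peak of each other class, which had signals of 828.1 inside genes, 1211.3 near a TSS and 610.0 beyond 10000 bp. The share called in both replicates was 35.8% for the members, 35.5% (31.9% to 39.3%) inside genes, 51.2% (47.6% to 54.7%) near a TSS and 26.6% (21.0% to 33.1%) beyond 10000 bp. The members' interval thus overlapped those of in-gene and distant peaks and lay below that of peaks near a TSS. The authors' shorter conservative list held 160 of the members (74.4%) and 78.1% of all main-arm pooled peaks. In signal and in calls by replicate, intergenic near-gene peaks and in-gene peaks at the same distances thus overlapped.

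**Figure D2:**
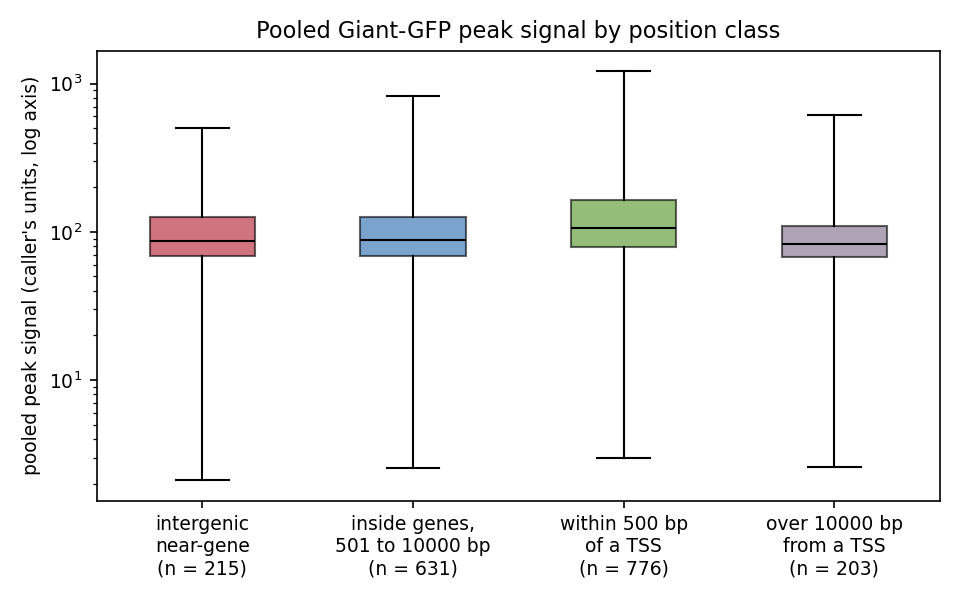
Pooled peak signal (y axis, caller's units, log axis) by position class (x axis); boxes span the lower to the upper quartile with a line at the median, and whiskers reach the lowest and highest peak. Intergenic near-gene peaks (median 87.3) and in-gene peaks (median 88.2) have almost the same median and quartiles, and peaks within 500 bp of a TSS have a higher median of 106.3.

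The members were spread over 20.22 Mb of sequence that meets the position rule, 15.1% of the main arms, at 10.6 members per Mb. Their distance from the nearest protein-coding TSS ran from 509 to 9713 bp with a median of 2910 bp. Density was highest close to genes, with 17.3 members per Mb up to 1000 bp, 13.4 at 1001 to 2000 bp, 9.42 at 2001 to 5000 bp and 8.67 at 5001 to 10000 bp. Of the 215, 152 (70.7%, 64.3% to 76.4%) lay upstream of that TSS and 63 downstream, whereas 64.9% of the available sequence was upstream. That available share lies inside the members' interval. The sides differed most at the nearest distances. Up to 1000 bp there were 35 members upstream (19.1 per Mb) and 1 downstream (3.93 per Mb), while from 2001 bp outward the sides differed by less than 1 member per Mb. Only 254569 bp of downstream sequence lay within 1000 bp, beside 1831184 bp upstream, because sequence inside genes does not count. Upstream members had a median signal of 90.5 and downstream members 77.8.

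**Figure D3:**
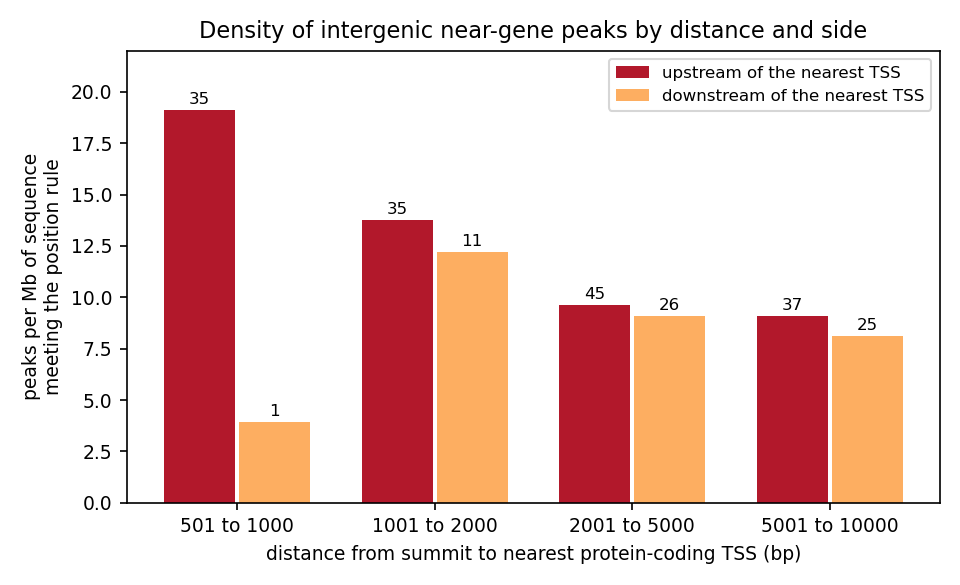
Intergenic near-gene peaks per Mb of sequence that meets the position rule (y axis) by distance from the nearest protein-coding TSS (x axis, bp), upstream and downstream of it; numbers above the bars count members. The upstream bars fall with distance, from 19.1 per Mb in the bin that ends at 1000 bp to 9.10 at 5001 to 10000 bp, and the downstream bar of the nearest bin stands for 1 member.

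The gaps that held a member had a median length of 11742 bp, and 81 members lay between divergent genes, 96 between genes in tandem and 38 between convergent genes. The median signals in these gaps were 89.9, 88.8 and 78.3, and the shares called in both replicates were 35.8%, 39.6% and 26.3%. The available sequence was not divided by arrangement or gap length, and long gaps hold more of it. The counts by arrangement and the median gap length therefore have no base share beside them. By chromosome arm, 2L held 58 members (14.0 per Mb of available sequence), 3L 53 (12.2), 2R 41 (11.4), 3R 42 (8.44) and X 21 (7.004). Chromosome 4 held none, in 141013 bp. The X carried 9.77% of the members and 14.8% of the available sequence. The sexes of the embryos were not recorded, and in a mixed population the X has fewer copies than the autosomes. The part of that difference in the members' share was not tested.

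A total of 175 protein-coding genes had at least 1 member, 2.69% of the 6517 genes with any sequence that meets the rule. Of these genes, 142 had 1 member, 29 had a pair, and CG6168, RYBP, CG42807 and CG7560 had 3 or more. CG7560 (FBgn0036157) had 5, all in the 27292-bp gap between CG44362 and CG7560 on 3L and all upstream. Their pooled signals were 243.7, 162.9, 123.8, 90.3 and 87.3, and 2 of them, with 243.7 and 87.3, were called in both replicates. CG42807 had 4 in the gap beside CG13334, with signals of 217.3, 103.3, 77.3 and 66.0. RYBP, which encodes a partner of Polycomb repressive complex 1, had 3, with signals of 119.7, 80.1 and 80.0. Its strongest was the only 1 of the 3 called in both replicates.

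Gene lists are given here over the genes with any sequence that meets the rule. Of all such genes 2.69% had a member. None of 6 gap genes and none of 8 Hox genes had one. Of 9 pair-rule genes slp2 had one, and of 8 segment polarity genes ptc and wg did, which were also the only ones among 34 signalling genes. At ptc, the gene of the Hedgehog receptor, the member lay 5258 bp upstream with a pooled signal of 109.8, 38.0 in replicate 1 and 68.9 in replicate 2. The member at the Wnt ligand gene wg lay 2302 bp upstream with 68.5, called in neither replicate. Of 7 head gap and maternal genes ems had one, of 15.9, also called in neither, with no ranked region in replicate 1 and a signal of 41.9 in replicate 2. The signals at slp2 and ptc were above the members' median of 87.3, and those at wg and ems below it.

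Of 18 dorsoventral and amnioserosa genes, 3 had a member. Doc2, a T-box factor gene, had a member 6674 bp upstream with a pooled signal of 146.5, 73.9 in replicate 1 and 78.9 in replicate 2. The LIM-homeobox gene tup had a pair of summits 8992 and 9194 bp upstream, with pooled signals of 113.0 and 8.96, and peb, a zinc-finger gene, had one of 85.7 that lay 578 bp upstream. Of 12 mesoderm and heart regulators, bin, the FoxF factor gene of the visceral mesoderm, had one of 99.5 that was called in replicate 2 only, with 25.1 in replicate 1 and 80.1 in replicate 2. Of 31 neural regulators SoxN, a Sox factor gene, had one of 69.3, and tup is in that list too. Of 13 bZIP factor genes, the family to which Giant belongs, Atf3 alone had a member, 1867 bp upstream, with a pooled signal of 159.6, 60.3 in replicate 1 and 100 in replicate 2. Of 11 tracheal and epithelial regulators, the ETS repressor gene aop (Yan) had members at 118.7 and 69.0, and the BTB factor gene rib had one at 67.3.

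Of 12 Polycomb, trithorax and insulator genes, Psc and ph-d had members, both genes for subunits of Polycomb repressive complex 1. This list does not include tara or RYBP, which had members too, as given above. The ph-d peak between ph-d and ph-p had a pooled signal of 170.9, with 50.1 in replicate 1 and 126.2 in replicate 2. Of 15 immune genes PGRP-SA, a peptidoglycan receptor gene, had a member at 72.7, and of 60 Cpr cuticle protein genes Cpr76Ba had one at 178.1. The 111 chemoreceptor genes had 4 members, at Gr93a, Gr89a and Ir67b, with signals of 64.8 to 99.0, none of them called in both replicates. None of 38 cytosolic or 17 mitochondrial ribosomal protein genes, and none of 14 nuclear receptor and ecdysone genes, had a member. Of 2904 genes known only by a CG number, 66 had a member, with 87 members in all, of which 28 were called in both replicates. Lists of so few genes with a member, chosen with results of these data known, were not tested against the 2.69% of all genes.

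Some members lay beside another pooled summit. For 43 members (20%) another pooled summit lay within 1000 bp, and for 21 it lay within 300 bp. The 12 members with a signal under 20 were mostly of this kind, since 11 of them had another summit 199 to 248 bp away. The tup pair overlapped the same replicate regions, 39.1 in replicate 1 and 67.9 in replicate 2, although the pooled signals of its summits were 113.0 and 8.96. The weaker ph-d summit, with a pooled signal of 2.11, likewise shared the replicate 2 region of its neighbour. Such pairs count as separate members but are not separate measurements.

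A position outside every gene can still be a start site of a non-coding RNA. For 15 members (6.98%, 4.27% to 11.2%) the summit lay within 500 bp of the annotated start of a non-coding gene, against 2.89% of the available sequence. In the list of replicate 1 alone the share was 13.0%, and in that of replicate 2 alone 11.0%. These 15 had a median signal of 124.4, and 11 were called in both replicates. The hll peak, with a pooled signal of 290.4, 118.3 in replicate 1 and 174.3 in replicate 2, lay 3 bp from the start of lncRNA:CR31840. The upstream Psc peak lay 161 bp from that of lncRNA:CR44339, and the eEF1gamma peak 103 bp from that of lncRNA:CR31044. Uhg4, a small nucleolar RNA host gene, began 66 bp from a member with a signal of 170.5. Peaks of this kind are near a start site by position, and the rule kept them because it counted protein-coding starts only. Transposable elements held 1 member, in an INE-1 copy upstream of ed, a cell adhesion gene, with a signal of 98.7. That is 0.465% of the members (0.0821% to 2.59%), while 7.76% of the available sequence was annotated as transposable elements. The treatment of reads that map to repeats was not given in the sources used here, so the part of mappability in that share was not tested.

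At least 1 of the 4 CAGTG-type 7-mers lay within 100 bp of the summit in 57 of the 215 members (26.5%, 21.1% to 32.8%). Windows of the same length 1000 bp to either side of the same summits held one in 32 of 430 (7.44%, 5.32% to 10.3%), and tiles of all sequence that meets the position rule in 7.04%. The 7-mers were chosen on these pooled peaks, so their excess is a description and no independent evidence. CAGTGTA was the most frequent, within 100 bp of 28 summits (13.0%) against 10 windows away (2.33%), followed by CACTGAG at 21 summits (9.77%) against 6 windows (1.40%). ACAGTGG and CACAGTG were less raised, at 15 (6.98%) and 14 summits (6.51%), each against 13 windows (3.02%). The share in members overlapped that of in-gene peaks (29.8%, 26.4% to 33.5%), peaks near a TSS (20.4%, 17.7% to 23.3%) and peaks beyond 10000 bp (26.1%, 20.6% to 32.6%). The bare core CAGTG was in 49.3% of the members' windows, 30.2% of the windows 1000 bp away and 28.3% of the tiles.

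The core was not centred on the summit. Its density around member summits was 2.65 matches per kb within 39 bp, 3.89 at 40 to 79 bp and 3.84 at 80 to 119 bp, and between 1.69 and 2.27 in every bin from 160 bp outward. In the other classes too the core was less dense within 39 bp than at 40 to 79 bp. The difference was wider at in-gene peaks than at members, with 2.19 matches per kb within 39 bp and 5.15 at 40 to 79 bp. The letters around the core differed between the 169 copies at member summits and the 176 copies in the windows away. The second base after the core was A in 52.7% of the summit copies and 33.0% of the others. The second base before the core was C in 43.2% and 25.6%, and the sixth base before it was T in 52.7% and 33.0%. That A is part of CAGTGTA, and that C is part of CACAGTG and of CACTGAG read on the other strand. Those words were chosen on the same pooled peaks, so the A and C differences partly restate that choice. The T lies outside all of the words. The positions named were picked from all those counted around the core, and the differences were not tested. CACTG also overlaps the end of the M1BP promoter site GGTCACACT when a G follows, but only 1 member held that site, the slp2 peak printed above.

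**Figure D4:**
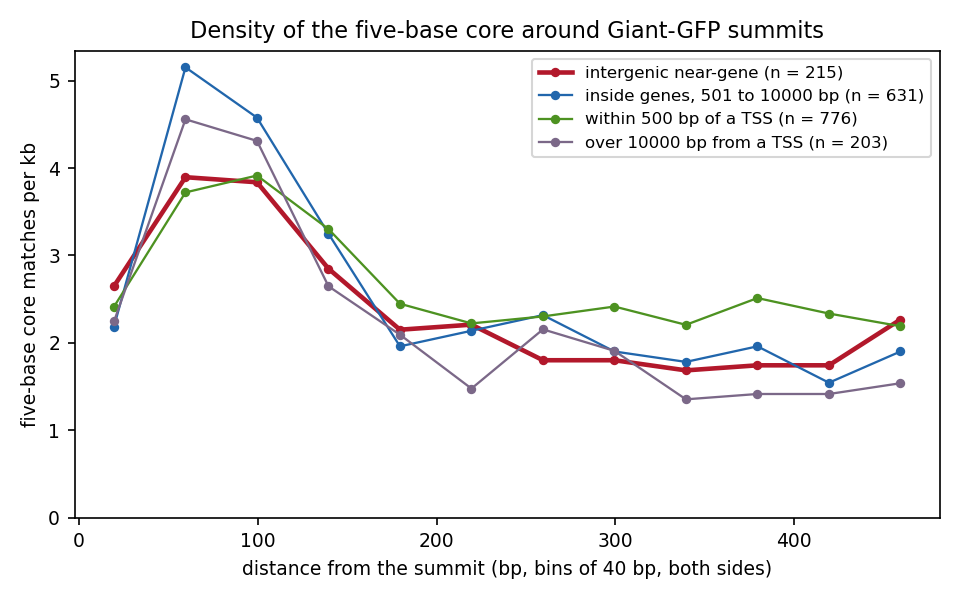
Matches to the core CAGTG on either strand per kb (y axis) by distance from the summit in bins of 40 bp with both sides joined (x axis, bp), for the 215 intergenic near-gene peaks and the other 3 classes. All classes rise to 40 to 119 bp from the summit, where the intergenic near-gene peaks reach 3.89 and 3.84 per kb, and are lower at the summit itself.

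The 7-mers were in 27 of the 77 members called in both replicates (35.1%, 25.4% to 46.2%), 11 of the 36 called in replicate 1 only (30.6%), 5 of the 31 called in replicate 2 only (16.1%) and 14 of the 71 called in neither (19.7%, 12.1% to 30.4%). The 108 members of higher signal held one in 31.5% and the 107 of lower signal in 21.5%, with overlapping intervals. The share was lower in GC-rich members. Member windows averaged 39.4% ± 8.08 GC (SD, n = 215) and the windows 1000 bp away 41.8% ± 8.59 (SD, n = 430). In members with less than 35%, 35 to 40% and 40 to 45% GC, the share with a 7-mer was 32.9%, 31.6% and 33.3%, and tiles of the same GC had 5.90%, 7.34% and 6.88%. In the 52 members with 45% GC or more it was 7.69%, close to the 7.89% of tiles of that GC.

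The Giant site with at most 1 mismatch was in 14 of the 215 members (6.51%, 3.92% to 10.6%), in 31 of the 430 windows 1000 bp away (7.21%, 5.13% to 10.1%) and in 7.23% of the tiles. The members' interval includes both of these shares. In the list of replicate 1 alone the share was 10.6% (6.28% to 17.3%) of 123 peaks chosen by the same rule, and in that of replicate 2 alone 9.32% of 118. No member held the palindrome without a mismatch, which allows a share of up to 1.75% by the Wilson interval. The share was 8.40% (6.48% to 10.8%) at in-gene peaks, 11.7% (9.65% to 14.2%) at peaks near a TSS and 5.91% (3.41% to 10.1%) at peaks beyond 10000 bp. Within the members the share was higher at stronger peaks, a difference that was not tested. Of the 108 members of higher signal, 12 held a site (11.1%, 6.47% to 18.4%), against 2 of the 107 of lower signal (1.87%, 0.514% to 6.56%), and of the 77 called in both replicates 9 did (11.7%), against 1 of the 71 called in neither (1.41%). The intervals of the stronger members include the 7.23% of the tiles, and that of the members of lower signal lies below it. GC content was not computed for this split. The 97 members above the median signal of all pooled peaks, a smaller set than the 108, averaged 36.5% GC, against 39.4% for all 215. The part of GC content in the difference was not tested. In the 4 GC classes above, from low to high, the site was in 8.22%, 8.77%, 6.06% and 1.92% of the members and in 11.6%, 8.22%, 5.99% and 4.02% of the tiles. The letters TAACGTTA, a rearrangement of the site searched the same way, were in 16 members (7.44%, 4.63% to 11.75%), the l(3)neo38 peak printed above among them. They were in 20 of the 430 windows away (4.65%) and in 5.82% of the tiles, and the interval includes both shares. At peaks near a TSS the rearranged letters were in 9.7% of summit windows and 5.67% of windows away. The Giant site was there in 11.7% and 6.25%. No match says only that these letters were not in the window, and Giant may bind other letters.

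**Figure D5:**
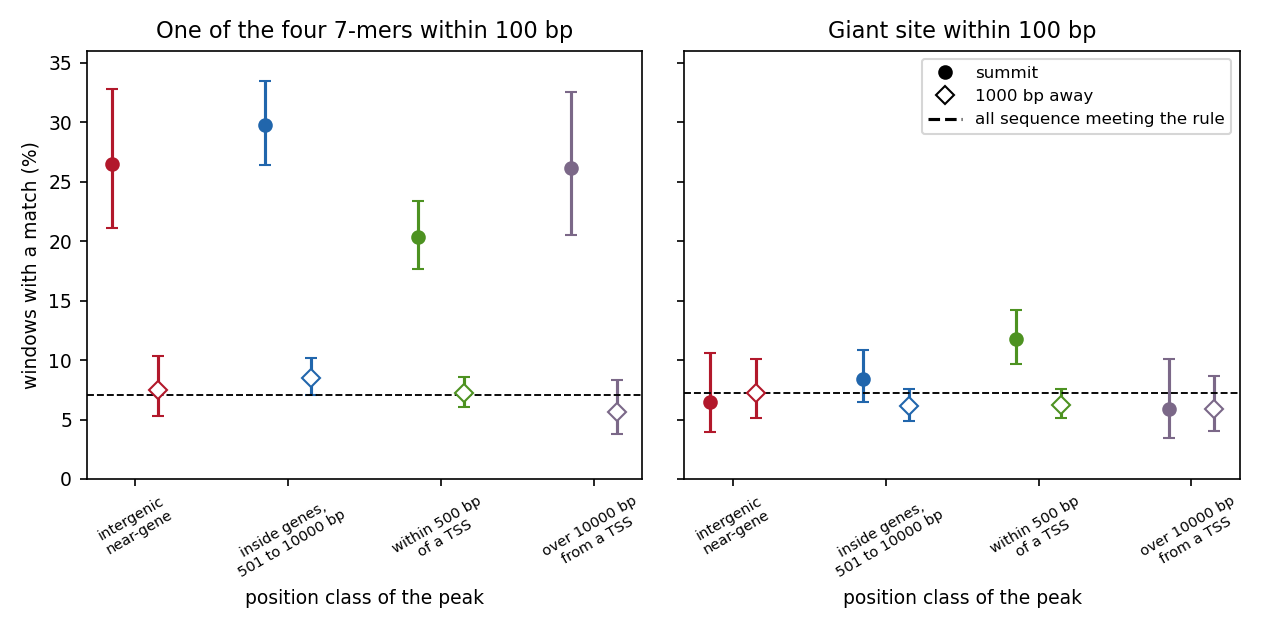
Share of windows with a match (y axis, %) to 1 of the 4 CAGTG-type 7-mers (left) and to the Giant site with at most 1 mismatch (right), at summits (filled) and 1000 bp away (open), by position class (x axis); bars are 95% Wilson intervals and the dashed line is the share among tiles of all sequence that meets the position rule. The 7-mers reach 26.5% at intergenic near-gene summits against 7.44% away from them, and the Giant site 6.51% against 7.21%.

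Around gt itself, 4 members lay within 40000 bp. The nearest, with its summit 8401 bp from gt and its closest TSS that of CG32797, had a pooled signal of 79.6, 30.4 in replicate 1 and 53.3 in replicate 2, and was called in replicate 2 only. The tko peak, 12324 bp from gt, had 124.3, with 40.1 in replicate 1 and 71.5 in replicate 2, and the PsGEF peak, 30372 bp from gt, had 125.5, with 42.1 and 72.2. Both were called in both replicates, and the CG12496 peak, at 92.6, in neither. None of the 4 was among the 20 strongest members.

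The limits of the position rule passed through ordinary peaks. The summits just inside 500 bp were those of CG10479 (509 bp, signal 230.8), Poxm (525 bp, 166.8) and Boot (549 bp, 170.5), and those just outside were CG6602 (491 bp, 117.3), CG17896 (486 bp, 151.3) and CG8854 (480 bp, 70.2). At the other end, soti (9713 bp, 107.7), CG7560 (9661 bp, 90.3) and Obp56h (9536 bp, 69.7) were inside, and CG15283 (10374 bp, 89.0), 18w (10476 bp, 136.6) and Cnx99A (10499 bp, 66.9) outside.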

How the data were processed

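Per the labels, chromatin of whole embryos was sonicated to 200 to 800 bp, precipitated with anti-GFP and sequenced as 2 biological replicates, and a control library is named. Peaks are on dm6, per the labels. Aligner and caller were not given in the sources used here. For each replicate the authors deposited a ranked and a thresholded peak list. Of the series-level lists, the longer thresholded one (1861 peaks, 36 off the main arms) is the pooled list and the shorter the conservative list, and 2 ranked ones were not used. Peak signal is the authors' deposited value, used to describe or rank peaks within a list.

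Summits were placed against Ensembl release 115 genes and the Release 6 sequence, with transposable elements not counted as genes. Overlaps needed 1 bp. Motifs were counted on either strand within 100 bp of a summit, of positions 1000 bp away and in 97376 tiles of the same length from all sequence that meets the rule. Shares have 95% Wilson intervals, which cover only the sampling of peaks. Python 3.11.15, numpy 2.4.6 and pandas 2.3.3 were used. The motif code was tested on made-up sequences with planted motifs, and the nearest-TSS code against a direct search of the annotation. The overlap code was not tested in this way.

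The members, the 19 gene lists and the motifs were chosen with earlier results of these data known. By rule, the text names the 20 strongest members called in both replicates with their neighbours, members at up to 4 genes per list, genes with 3 or more members, the 3 summits on each side of each distance limit, members in transposable elements and the 5 strongest called in neither replicate. Peaks near gt and non-coding starts were added afterwards, chosen by position. Of 288 listed symbols, 7 were matched through synonyms and 5 were not matched.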

Additional observations from a re-analysis of the deposited data

How the results depend on the processing

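Of 85 recomputed values, 58 stayed within the range set around the reported value. For shares this range was the Wilson interval. For the signal ratio and the mean GC it was 0.904 to 0.959 and 39.1% to 39.7%, which are not Wilson intervals. By these ranges 5 of 9 signal ratios and 4 of 9 GC means stayed. The total of 58 therefore mixes unlike criteria. No paired analysis was possible because the series has 1 group and the results come from no test. With members more than 1000 bp or at most 5000 bp from a TSS, they were 9.81% and 8.38% of pooled peaks, and their median signal was 0.891 and 0.988 times that of all pooled peaks, against 0.931 as reported. With only protein-coding genes counted as genes they were 13.6% of pooled peaks, and 11.7% of them lay within 500 bp of a non-coding start. On the conservative list 45.1% were called in both replicates, the signal ratio was 0.962 and the mean GC 38.6%. Among peaks above the median signal, 75.3% were called in both, 11.3% held a Giant site, 12.4% lay by a non-coding start and the mean GC was 36.5%. It was 38.3% at most 5000 bp from a TSS, and no member more than 1000 bp from one lay in a transposable element. Windows of 50 bp and 200 bp to each side gave 7-mer shares of 11.2% and 36.7% and Giant site shares of 3.26% and 12.1%, and with no mismatch the site share was 0, as shorter or stricter windows hold fewer matches by construction. With the list of a single replicate in place of the pooled one, the 7-mer share was 28.8% to 34.2%, the Giant site share 9.32% to 10.6%, the upstream share 72.0% to 77.2%, the transposable element share 0 to 0.813%, the signal ratio 0.935 to 0.973, the share by a non-coding start 11.0% to 13.0% and the mean GC 37.3% to 37.7%. For the other changes the cause was not tested. With 2 replicates and no read counts, the depth behind a missed call is unknown.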

Other observations

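All 8-mers were counted within 100 bp of the 215 intergenic near-gene summits and in the 430 windows 1000 bp away, each together with its reverse complement, and those named here were chosen after their counts were seen, with no test. There were 24 8-mers at 8 or more summits and with at least 5 times the share of the windows away, and 7 of them held CAGTG or its reverse complement. TACACTGA was at 17 summits (7.91%) and in 2 of the windows away (0.465%), and CAGTGTAG was at 10 summits and in none of those windows. The others did not hold the core. GAGAGAAA was at 15 summits (6.98%) and in 2 windows away (0.465%). Its letters can run on from the core, because CACTGAGA, at 12 summits, overlaps TGAGAGAA, at 8, which overlaps GAGAGAAA. How often GAGAGAAA stood beside the core was not counted, so it may not be a separate word. The letters GAGAGAG, searched in the same windows, showed no such excess, at 8 summits (3.72%) and in 15 windows away (3.49%). The palindrome TGGCGCCA was at 9 summits (4.19%), the sp3 peak printed above among them, and in 2 windows away (0.465%).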
